A study of Mus musculus with 4 samples.

Results

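The genes described here are 35 genes of mitosis and the spindle checkpoint, listed by name, in cultured mouse fetal liver progenitor cells. A gene was measured where the array's annotation gave it a probe set of its own (a group of short probes that reports 1 transcript), and the probe set with the highest mean signal over the 4 arrays stood for it. This gave 34 of the 35 genes, out of 18193 genes in all. The signal of Ccnb1 was not analysed here, and only its promoter is described. All 34 were above a signal floor of 100.001 on all 4 arrays, so none was lost or bounded by the filter on low signals.

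RNA was measured on 4 arrays, 1 for each culture. The cultures were labelled H-RasV12 (a constitutively active Ras GTPase), myr-Akt (the kinase AKT1, tethered to membranes by a myristoyl tag), c-Myc (a transcription factor) and non-transformed. All of them, the non-transformed culture included, were p53-/- and grew in serum-containing medium with dexamethasone, nicotinic acid, 2-mercaptoethanol, an insulin, transferrin and selenium supplement, EGF, HGF and penicillin with streptomycin. The series asks how cells transformed by an oncogene differ from non-transformed cells. The series' design text names the oncogenes together, while the sample labels name 1 for each culture, and the labels were used. The sources used here do not give how the oncogenes were introduced, or whether a culture was 1 clone or a pool. With 1 array for each culture there is no spread between replicates, so no test was possible and every difference is between arrays. The 3 comparisons with non-transformed cells share its single array, so they are not independent of each other.

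The Myc transcript, with a single probe set, had signals of 1747, 639.7 and 420.6 on the H-RasV12, myr-Akt and c-Myc arrays, against 2285 in non-transformed cells. The library labelled c-Myc thus had the least of it. Akt1 had signals of 2760.3, 2834 and 2991 on these arrays, against 1870.1 in non-transformed cells, so it was not highest on the array labelled myr-Akt. The sources used here do not say whether these probe sets read an introduced gene, and each direction given for the libraries labelled c-Myc and myr-Akt rests on the label. Of 11 measured liver progenitor markers, 10, 4, 3 and 7 were above the floor on the H-RasV12, myr-Akt, c-Myc and non-transformed arrays, with summed signals of 20729, 2350, 4306 and 7378. Afp, Alb, Hnf4a and Ttr were above it on the H-RasV12 array only. Epcam was above it on the myr-Akt and non-transformed arrays only (178.6 and 112.1, against 74.9 on the H-RasV12 array). Dlk1 was highest on the c-Myc array, at 1898, against 262.4 on the H-RasV12 array. Krt18 alone gave 10745 of the summed signal on the H-RasV12 array. Of 6 stellate and mesenchymal markers, 6, 5, 4 and 6 were above the floor in the same order of arrays, and of 4 mesothelial markers 3, 4, 4 and 4. Their summed signals were 83830, 55878, 48706 and 100156 for the first list, and 6005, 18536, 16987 and 28544 for the second. Of 4 blood markers, 2, 2, 0 and 1 were above the floor, and of 4 endothelial markers none was on any of the 4 arrays. The 5′ to 3′ ratio of the beta-actin controls, a measure of RNA integrity, was 0.907, 0.846 and 0.870 on the H-RasV12, myr-Akt and c-Myc arrays and 0.889 on the non-transformed array. The part of cell makeup in the values below was not tested.

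Mitosis is started by the kinase CDK1 bound to A- and B-type cyclins. Chromosomes attach to spindle microtubules at their kinetochores. The spindle checkpoint (BUB1, BUBR1, BUB3, MAD2 and the kinase TTK) holds back the anaphase-promoting complex, APC/C, until every kinetochore is attached, after which motor proteins and cytokinesis factors divide the cell. Transcripts of these genes accumulate in G2 and mitosis and are low in resting cells, so they are often read together as a sign of cycling cells. The RNA of a whole culture cannot tell fewer cycling cells from less RNA in each of them.

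Mitosis genes were higher on all 3 transformed arrays than on the non-transformed array, by amounts that mostly stayed under 2-fold. The median log2 difference of the 34 genes was 0.30 for H-RasV12, 0.60 for myr-Akt and 0.59 for c-Myc, each against non-transformed cells. Over the 10679 genes that exceeded the floor on 1 or more arrays (the tested genes), the medians were 0.003, -0.02 and 0.00. On the myr-Akt and c-Myc arrays the largest differences were those of Bub1b, which encodes the checkpoint kinase BUBR1, and Ccna2, which encodes cyclin A2. On the H-RasV12 array they were those of the checkpoint kinase genes Bub1 and Ttk, at 0.89 and 0.74. Cenpf, Nuf2, Spc25 and Anln were below non-transformed cells on 1 or more arrays.

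On the H-RasV12 array 30 of the 34 genes were above the non-transformed array, against 50.2% of all tested genes. On the myr-Akt array 33 of 34 were, against 46.7%, and on the c-Myc array 33 of 34, against 47.8%. Past 1.5-fold higher were 6 of 34 on the H-RasV12 array (17.6%, against 8.87% of all tested genes). There were 20 of 34 on the myr-Akt array (58.8%, against 16.3%) and 17 of 34 on the c-Myc array (50%, against 15.3%). None was 1.5-fold lower on any of these arrays, where 13.7%, 22.5% and 20.4% of all tested genes were. Over the 8965 genes above the floor on all 4 arrays, as all 34 were, 11.7%, 19.3% and 17% were 1.5-fold lower. Of those genes 53.3%, 51.9% and 53.3% were above the non-transformed array, and 7.91%, 18% and 16.8% were 1.5-fold higher. Past 2-fold higher were 0 of 34 on the H-RasV12 array (2.08% of all tested genes), 2 of 34 on the myr-Akt array (5.88%, against 4.9%) and 2 of 34 on the c-Myc array (5.88%, against 4.42%). The share of mitosis genes past 2-fold was thus near that of all genes, but this depended on the scaling. With arrays scaled to a common median, 10 of 34 passed 2-fold for myr-Akt (12.2% of all tested genes did) and 14 of 34 for c-Myc (13.2%). Of all calls past 1.5-fold, 39.3%, 42.1% and 42.9% were higher on the H-RasV12, myr-Akt and c-Myc arrays, and 53.8%, 67.4% and 71.7% were under that scaling.

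**Figure D1:**
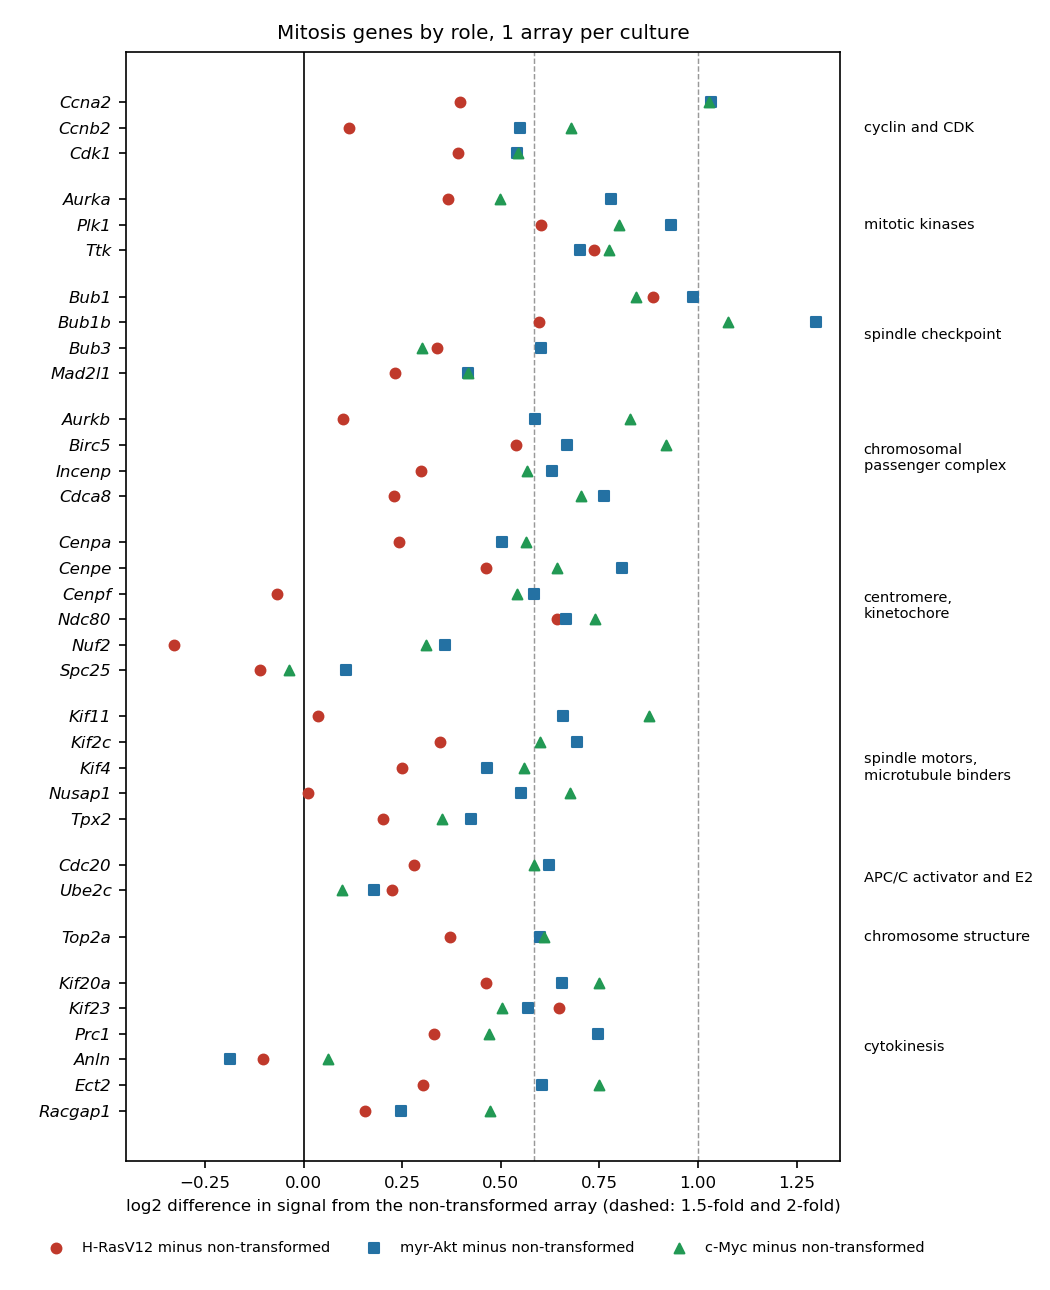
Log2 difference in signal between each transformed array and the non-transformed array for the 34 mitosis genes, grouped by role (1 array per culture, so no error bars). Dashed lines mark 1.5-fold and 2-fold. Most points lie between 0 and 1, the H-RasV12 circles lie left of the other symbols for most genes, and the points left of 0 belong to Cenpf, Nuf2, Spc25 and Anln, of which scaling to a common median moves Cenpf for H-RasV12, Anln for myr-Akt and Spc25 for c-Myc above 0.

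Promoters of such genes are known for CCAAT boxes, bound by the factor NF-Y, and for the cell cycle homology region, abbreviated CHR, through which they are held down in resting cells and raised in G2 and mitosis. Because these genes were higher together, their promoters were searched in the RefSeq windows of mouse build GRCm38.p6, which run from 250 bases before to 50 after each annotated start. CCAAT, and TTTGAA or TTCGAA for the CHR, were searched on both strands. Of the 35 listed genes 30 had a window, and Ccna2, Aurkb, Incenp, Kif20a and Tpx2 did not. The promoters of the CDK1 gene, a B-type cyclin, a checkpoint target, the checkpoint kinases and a spindle motor are shown first, followed by 3 genes that were below non-transformed cells on the H-RasV12 array (Spc25, Nuf2 and Anln). Each stretch runs 5′ to 3′ from 120 bases before to 30 after the start, and capitals mark whole matches to CCAAT, to the CHR or to their reverse complements.
Cdk1 (chr10:69352883-69353032, minus strand): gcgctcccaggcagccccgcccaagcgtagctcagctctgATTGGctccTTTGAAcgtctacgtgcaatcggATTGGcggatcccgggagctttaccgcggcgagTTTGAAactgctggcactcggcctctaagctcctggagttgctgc
Ccnb2 (chr9:70421525-70421674, minus strand): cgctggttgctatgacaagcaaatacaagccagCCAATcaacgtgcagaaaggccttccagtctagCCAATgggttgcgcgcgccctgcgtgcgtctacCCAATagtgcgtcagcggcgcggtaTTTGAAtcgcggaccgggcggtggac
Cdc20 (chr4:118437314-118437463, minus strand): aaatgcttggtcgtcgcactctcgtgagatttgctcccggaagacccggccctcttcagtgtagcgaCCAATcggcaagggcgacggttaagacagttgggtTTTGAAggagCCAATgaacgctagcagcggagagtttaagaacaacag
Bub1 (chr2:127831830-127831979, minus strand): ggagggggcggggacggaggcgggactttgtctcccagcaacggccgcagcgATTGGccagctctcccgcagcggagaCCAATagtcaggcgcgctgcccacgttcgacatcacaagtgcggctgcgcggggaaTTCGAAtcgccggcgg
Ttk (chr9:83834569-83834718, plus strand): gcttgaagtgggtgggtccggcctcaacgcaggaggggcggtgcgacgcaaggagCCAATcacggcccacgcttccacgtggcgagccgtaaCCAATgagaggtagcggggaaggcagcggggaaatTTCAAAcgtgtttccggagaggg
Kif11 (chr19:37376262-37376411, plus strand): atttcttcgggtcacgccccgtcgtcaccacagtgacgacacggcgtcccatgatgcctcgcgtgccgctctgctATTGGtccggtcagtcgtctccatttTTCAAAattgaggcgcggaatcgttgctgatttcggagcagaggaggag
Spc25 (chr2:69206184-69206333, minus strand): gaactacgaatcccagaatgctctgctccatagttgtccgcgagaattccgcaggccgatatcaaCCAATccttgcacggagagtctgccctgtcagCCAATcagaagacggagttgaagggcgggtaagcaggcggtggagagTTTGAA
Nuf2 (chr1:169531435-169531584, minus strand): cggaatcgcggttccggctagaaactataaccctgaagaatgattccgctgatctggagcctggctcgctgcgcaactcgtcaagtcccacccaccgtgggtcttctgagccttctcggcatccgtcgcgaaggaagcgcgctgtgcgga
Anln (chr9:22389177-22389326, minus strand): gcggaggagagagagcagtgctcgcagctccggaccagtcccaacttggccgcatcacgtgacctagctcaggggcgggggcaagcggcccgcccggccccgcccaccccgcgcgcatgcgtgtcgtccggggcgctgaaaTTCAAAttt

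In the full windows, 23 of 30 genes had a CCAAT (76.7%), against 41.1% of all 27025 genes with a window, 56.4% of 101 other mitosis genes and 63.3% of 30 DNA replication genes. A CHR was found in 24 of 30 (80%), against 21.7% of all genes, 46.5% of the other mitosis genes and 20% of the DNA replication genes. Within 50 bases of the start, 23 of 30 had a CHR (76.7%), against 6.12%, 32.7% and 6.67% of these sets. Both a CCAAT and a CHR were present in 21 of 30, or 70%, against 8.61%, 30.7% and 16.7%. The pairs of CCAAT boxes in Cdk1 (at -80 and -48) and Spc25 (-55 and -23) lie 32 bases apart, and the 3 boxes of Ccnb2 (-87, -54 and -21) are spaced by 33 bases. Ube2c, Aurka, Cdca8 and Ccnb1 also had a pair spaced by 30 to 34 bases, a range chosen after the positions were seen. Such a pair was present in 7 of 30 genes (23.3%). It was present in 1.70% of all genes, 7.92% of the other mitosis genes and 0% of the DNA replication genes. The share of the 30 rests on that choice of range.

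Signal differences were set beside the motifs as a description. The 21 genes with both motifs had medians of 0.30, 0.60 and 0.56 on the H-RasV12, myr-Akt and c-Myc arrays relative to non-transformed. The 4 genes with neither (Birc5, Mad2l1, Nuf2 and Nusap1) had medians of 0.12, 0.49 and 0.55. Spc25, with both motifs, was among the genes that differed least, and Birc5, with neither, was 1.89 times higher on the c-Myc array. A match describes the letters of a window and does not show that a factor binds there.

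**Figure D2:**
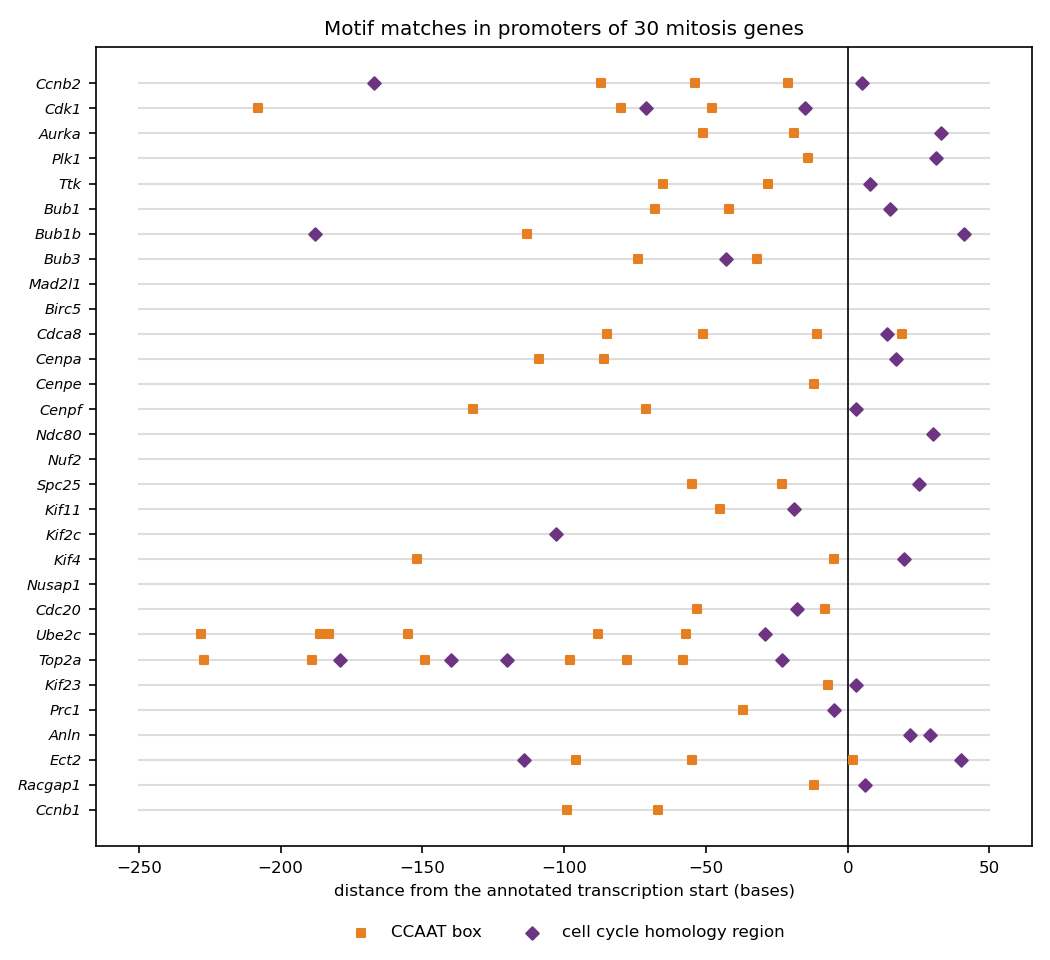
Position of each CCAAT box (squares) and CHR match (diamonds) relative to the annotated start, in bases, in the first listed window of the 30 mitosis genes that have one. The CHR matches gather near the start and the CCAAT boxes mostly upstream of it, while Mad2l1, Birc5, Nuf2 and Nusap1 have neither.

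Among the cyclins and their kinase, Ccna2 had a signal of 4343 on the H-RasV12 array, 6753 on the myr-Akt array and 6724 on the c-Myc array, against 3299 on the non-transformed array. It was 2.05 times higher for myr-Akt, 2.04 times for c-Myc and 1.32 times for H-RasV12. The myr-Akt and c-Myc signals were nearly equal, and that of H-RasV12 lay nearer to non-transformed cells. The next brightest probe set of Ccna2 gave 0.27, 0.72 and 0.77 on the log2 scale on the H-RasV12, myr-Akt and c-Myc arrays. Ccna2 was thus past 2-fold by its first probe set only. Ccnb2, which encodes cyclin B2, was higher by 0.12, 0.55 and 0.68 on the log2 scale on the H-RasV12, myr-Akt and c-Myc arrays. Cdk1 was 1.31, 1.45 and 1.46 times higher.

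The spindle checkpoint genes held the largest difference of the 34. Bub1b had a signal of 1786 on the H-RasV12 array, 2905 on the myr-Akt array and 2489 on the c-Myc array, against 1180.2 on the non-transformed array. These were 1.51, 2.46 and 2.11 times the non-transformed signal. Its next brightest probe set gave log2 differences of 0.59, 1.40 and 1.08, close to the 0.60, 1.30 and 1.08 of the first. Bub1, the checkpoint kinase that recruits other checkpoint proteins to kinetochores, had a signal of 3798, 4072 and 3687 on the H-RasV12, myr-Akt and c-Myc arrays, against 2055 in non-transformed cells. For Bub1 the H-RasV12 array was as high as the others, at 1.85 times the non-transformed signal, against 1.98 for myr-Akt and 1.79 for c-Myc. A second, dimmer probe set of Bub1 gave 0.03, 0.38 and 0.38 on the log2 scale.

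Bub3, a partner of both kinases, had a signal of 8001, 9608 and 7799 on the H-RasV12, myr-Akt and c-Myc arrays, against 6331 on the non-transformed array. It was 1.52 times higher for myr-Akt, 1.26 times for H-RasV12 and 1.23 times for c-Myc. Its probe set can bind further transcripts, and the next brightest one differed by 0.07, -0.24 and -0.45 on the log2 scale, so the direction of Bub3 on the myr-Akt and c-Myc arrays depended on the probe set. Another probe set of Bub3, dimmer still, gave 0.71, 0.82 and 0.64. Mad2l1, which encodes the APC/C inhibitor MAD2, was 1.17, 1.34 and 1.34 times higher on the H-RasV12, myr-Akt and c-Myc arrays.

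Of the mitotic kinases, Ttk, which phosphorylates kinetochores to start checkpoint signalling, had nearly the same signal in all transformed cultures. It was 2166, 2114 and 2223 on the H-RasV12, myr-Akt and c-Myc arrays, against 1299.6 on the non-transformed array, or 1.67, 1.63 and 1.71 times higher. Plk1, a kinase of mitotic entry and spindle assembly, had signals of 2526, 3172 and 2896 on these arrays, against 1663 in non-transformed cells. It was highest for myr-Akt, at 1.91 times. Aurka, the kinase of spindle poles, was 1.29, 1.72 and 1.41 times higher.

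All 4 genes of the chromosomal passenger complex, which corrects faulty attachments and later guides cytokinesis, passed 1.5-fold on the myr-Akt array (16.3% of all tested genes did). On the c-Myc array 3 of 4 did (15.3%), and on the H-RasV12 array 0 of 4 (8.87%). Birc5, which encodes the survivin subunit, had a signal of 3635, 3976 and 4731 on the H-RasV12, myr-Akt and c-Myc arrays, against 2502 on the non-transformed array. It was highest for c-Myc, at 1.89 times. Aurkb, the kinase of the complex, had signals of 1079, 1511 and 1785 on these arrays, against 1006 in non-transformed cells. The H-RasV12 array thus lay close to non-transformed cells for Aurkb, and c-Myc was 1.77 times higher. For myr-Akt, Aurkb passed 1.5-fold narrowly, at 1.502 times, and fell short of it with a pseudocount, at 0.54 on the log2 scale. Its next brightest probe set gave 0.21, 0.88 and 1.05 on the H-RasV12, myr-Akt and c-Myc arrays. Incenp and Cdca8, the scaffold and the borealin subunit, were higher by 0.30 and 0.23 on the log2 scale for H-RasV12, 0.63 and 0.76 for myr-Akt, and 0.57 and 0.70 for c-Myc.

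**Figure D3:**
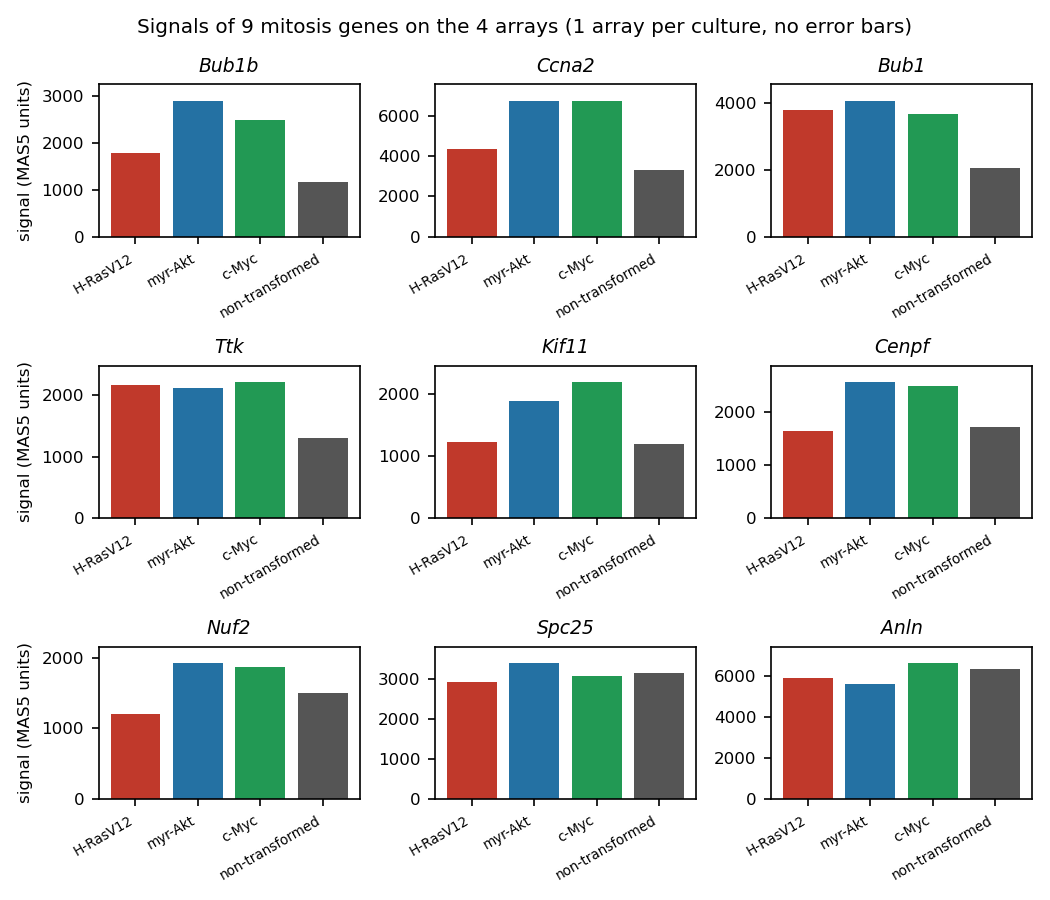
Signal in MAS5 units on each of the 4 arrays for 9 of the genes (bars start at 0, with 1 array per culture and no error). Bub1b and Ccna2 are highest on the myr-Akt and c-Myc arrays, Bub1 and Ttk are alike on the 3 transformed arrays, Kif11 and Cenpf on the H-RasV12 array are near non-transformed, and Spc25 and Anln vary little.

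Centromere and kinetochore genes differed among themselves. On the H-RasV12 array 3 of 6 were above non-transformed cells, beside 50.2% of all tested genes, and 3 were below. Ndc80 and Nuf2 encode partner subunits of the NDC80 complex, which grips the microtubule, and Spc25 encodes a further subunit of it. Ndc80 had a signal of 760.9, 773.7 and 813.6 on the H-RasV12, myr-Akt and c-Myc arrays, against 487.8 on the non-transformed array, or 1.56, 1.59 and 1.67 times higher. Nuf2 had a signal of 1202, 1932 and 1869 on these arrays, against 1508 on the non-transformed array. It was thus higher for myr-Akt (1.28 times) and c-Myc (1.24 times) but lower for H-RasV12, by a log2 difference of -0.33, the lowest among the 34 genes. Spc25 had signals of 2927, 3407 and 3085, against 3162 on the non-transformed array, with log2 differences of -0.11, 0.11 and -0.04. The value for c-Myc turned above 0 with scaling to a common median. The 3 subunits of 1 complex thus differed from one another on these arrays.

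Cenpf, a large kinetochore and nuclear matrix protein, had a signal of 1637 on the H-RasV12 array, 2572 on the myr-Akt array and 2497 on the c-Myc array, against 1716 in non-transformed cells. By its first probe set it was -0.07 for H-RasV12 on the log2 scale, and by the next brightest 0.35, so its direction there was not settled. The direction also turned with scaling of the arrays to a common median. Cenpe, the kinetochore motor, was higher by 0.46, 0.81 and 0.64 on the log2 scale on the H-RasV12, myr-Akt and c-Myc arrays. Cenpa, the histone H3 variant of centromeres, had a signal of 3638, 4363 and 4550 on these arrays, against 3077 on the non-transformed array. A dimmer probe set of Cenpa was lower for myr-Akt, at -0.64 on the log2 scale, while the brighter one was higher, at 0.50.

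Among spindle motors and microtubule binders, Kif11, the motor that pushes spindle poles apart, had a signal of 1225 on the H-RasV12 array, 1886 on the myr-Akt array and 2194 on the c-Myc array. The non-transformed array had 1195, so H-RasV12 was at 1.03 times and c-Myc at 1.84 times its signal. The next brightest probe set of Kif11 gave 0.37, 0.79 and 1.00 on the log2 scale, higher on each array than the 0.04, 0.66 and 0.88 of the first. Nusap1, which bundles spindle microtubules, had signals of 2091, 3044 and 3317 on the H-RasV12, myr-Akt and c-Myc arrays, against 2076 in non-transformed cells. H-RasV12 and non-transformed signals were close for Nusap1, and the difference of 0.01 on the log2 scale changed sign under quantile normalization. Kif2c, a kinesin that takes microtubules apart, had signals of 1210.2, 1541 and 1442 on these arrays, against 952.5 on the non-transformed array. Kif4, a chromosome-bound kinesin, had 648.2, 752.4 and 803.2, against 545.5 in non-transformed cells. Tpx2, which activates Aurora A at the spindle, was 1.15, 1.34 and 1.28 times higher.

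Of the 2 APC/C genes of the list, Ube2c differed little and Cdc20 more. Ube2c, a ubiquitin-conjugating enzyme of the APC/C, had a signal of 11999.9, 11624 and 10991 on the H-RasV12, myr-Akt and c-Myc arrays, against 10276 on the non-transformed array, or 1.17, 1.13 and 1.07 times higher. Cdc20, the activator that the checkpoint restrains, was higher by 0.28, 0.62 and 0.58 on the log2 scale by its brightest probe set. A further probe set of Cdc20 gave 0.61, 0.98 and 1.00. Top2a, the topoisomerase that untangles chromosomes, had signals of 7904, 9259.5 and 9319.9 on these arrays, against 6109.6 in non-transformed cells. These were log2 differences of 0.37, 0.60 and 0.61, and a dimmer probe set of Top2a gave 0.87, 0.97 and 1.13.

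Cytokinesis genes were mixed. Kif23, a kinesin of the central spindle, had a signal of 1970.0 on the H-RasV12 array, 1863 on the myr-Akt array and 1782 on the c-Myc array, against 1257 on the non-transformed array. It was 1 of 2 genes highest on the H-RasV12 array, at 1.57 times, and Ube2c was the other. With scaling to a common median, both were lower there than on the myr-Akt and c-Myc arrays. Racgap1, the partner of Kif23 in the centralspindlin complex, had signals of 1735, 1847 and 2159.6 on the H-RasV12, myr-Akt and c-Myc arrays, against 1557 in non-transformed cells. Ect2, which activates RhoA at the division plane, was 1.23, 1.52 and 1.68 times higher, and Kif20a and Prc1, which organise the central spindle, were higher by 0.46 and 0.33 on the log2 scale for H-RasV12, 0.66 and 0.75 for myr-Akt, and 0.75 and 0.47 for c-Myc. Anln, which encodes the ring scaffold anillin, had a signal of 5905, 5574 and 6622.5, against 6344 on the non-transformed array. Its log2 differences were -0.10, -0.19 and 0.06 by this probe set, and -0.22, -1.23 and -0.70 by a dimmer one. Anln was thus lower for myr-Akt by both probe sets (though above non-transformed by the first with scaling to a common median), while for c-Myc they differed in direction.

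Of the 34 genes, 23 had a further probe set, and for 19 it was above the floor on all 4 arrays. The next brightest probe set had the same sign as the brightest for 18 of 19 genes on the H-RasV12 array, 17 on the myr-Akt array and 17 on the c-Myc array. Medians over these 19 were 0.27, 0.67 and 0.70 by the next brightest and 0.30, 0.62 and 0.58 by the brightest. The log2 differences by these probe sets lay 0.5 or more apart for 2, 4 and 4 of the 19 genes. For 8 of the 34 genes the brightest probe set is of a kind that can bind more than 1 transcript.

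Set directly against the other oncogenes, the H-RasV12 array had lower mitosis signals. Of the 34 genes, 30 were lower than on the myr-Akt array (48.8% of all tested genes were) and 30 lower than on the c-Myc array (49.8%). These comparisons share the H-RasV12 array. The median log2 differences were -0.28 and -0.26. Past 1.5-fold lower were 5 of 34 against myr-Akt (14.7%, beside 12.1% of all tested genes) and 6 of 34 against c-Myc (17.6%, beside 12.5%), shares near those of all genes. Against myr-Akt, the lowest were Bub1b at -0.70, Nuf2 at -0.69, Cenpf at -0.65 and Ccna2 at -0.64. Against c-Myc, they were Kif11 at -0.84, Aurkb at -0.73, Nusap1 at -0.67 and Nuf2 at -0.64. By the next brightest probe set, Cenpf had signals of 354 on the H-RasV12 array and 400.5 on the myr-Akt array. Ccna2 had 4531.6 and 6183.3 by its next brightest, so both genes were then under 1.5-fold apart. Bub1b, with 1285.4 and 2260.8, stayed past 1.5-fold, and Nuf2 had no further probe set.

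The myr-Akt and c-Myc arrays were close for these genes. The log2 difference of c-Myc minus myr-Akt ranged between -0.30 for Bub3 and 0.25 for Anln and Birc5, with a median of -0.02. None of the 34 passed 1.5-fold either way, where 10.7% of all tested genes did. The sign of the median turned with the scaling and the choice of probe set.

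**Figure D4:**
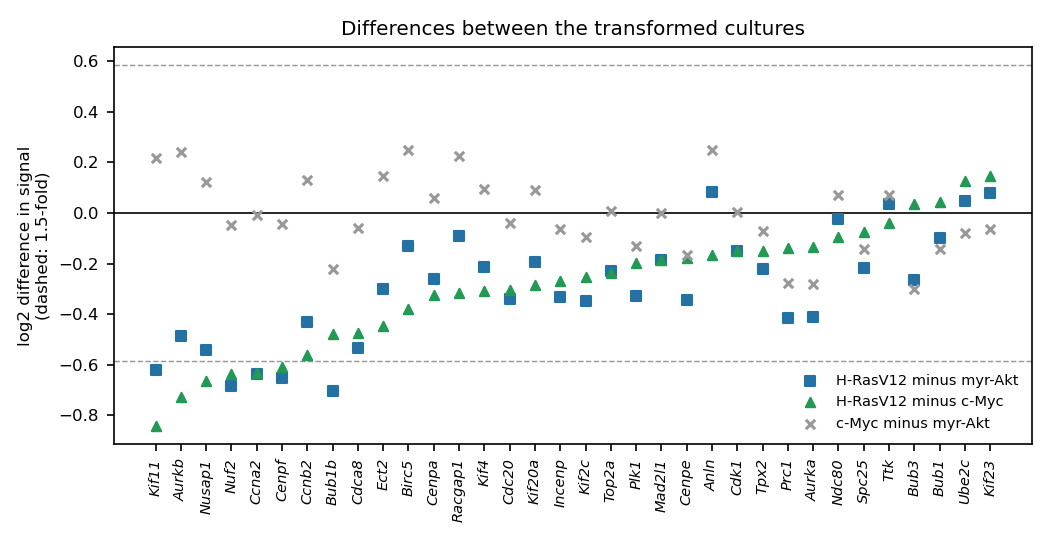
Log2 difference in signal between pairs of transformed arrays for the 34 genes, ordered by H-RasV12 minus c-Myc (1 array per culture). Squares and triangles lie mostly below 0 and reach -0.84, whereas the crosses for c-Myc minus myr-Akt stay between the dashed 1.5-fold lines.

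A further 124 mitosis genes were listed, of which 119 had a probe set of their own and 117 exceeded the floor on 1 or more arrays. Past 1.5-fold, 14 of these 117 were higher and 0 lower for H-RasV12, 46 higher and 2 lower for myr-Akt, and 41 higher and 3 lower for c-Myc. Of all tested genes 8.87%, 16.3% and 15.3% were higher, and 13.7%, 22.5% and 20.4% lower. Their medians were 0.29, 0.51 and 0.45. The checkpoint and kinetochore list had medians of 0.30, 0.57 and 0.44 over 34 genes. Ska1, a subunit of the SKA complex that holds kinetochores to microtubules, had a signal of 495.0, 1029.7 and 895.3 on the H-RasV12, myr-Akt and c-Myc arrays, against 407.9 on the non-transformed array. Oip5, which helps load CENP-A, was at -0.21, 1.20 and 1.32 on the log2 scale relative to non-transformed. Spdl1, an adaptor of dynein at kinetochores, was at 0.81, 1.20 and 1.13, and Trip13, which remodels MAD2, at 0.79, 1.02 and 1.19.

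The 18 genes of the APC/C and mitotic exit list had medians of 0.12, 0.09 and 0.01, the lowest of these lists. Espl1, which encodes separase, the protease that cuts cohesin, had a signal of 885.4, 1390.4 and 1389.5 on the H-RasV12, myr-Akt and c-Myc arrays, against 544.5 in non-transformed cells. Pttg1, which encodes its inhibitor securin, had 6777, 4936 and 3716, against 7481 on the non-transformed array. Espl1 was thus higher by 0.70, 1.35 and 1.35 on the log2 scale while Pttg1 was at -0.14, -0.60 and -1.01. The APC/C scaffold gene Anapc1 was at 0.14, 0.81 and 1.06, and Fbxo5, which encodes the APC/C inhibitor EMI1, at 0.52, 0.99 and 0.56.

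The condensin and cohesin list had medians of 0.32, 0.53 and 0.71 over 19 genes, with the cohesin regulators Pds5b at 0.81, 0.78 and 1.06 and Cdca5 at 0.42, 0.70 and 0.88. The cohesin acetyltransferase gene Esco2 was at -0.27, 0.48 and 1.06, and the condensin II subunit gene Ncapg2 at 0.62, 0.85 and 0.95. The spindle, centrosome and cytokinesis list had medians of 0.31, 0.53 and 0.49 over 29 genes. The augmin subunit genes Haus6 and Haus1 were at 0.68 and 0.46 for H-RasV12, 1.10 and 0.63 for myr-Akt, and 1.11 and 0.87 for c-Myc. Plk4, the kinase of centriole duplication, was at 0.64, 0.89 and 0.80, and the kinesin gene Kif18b at 0.49, 0.89 and 0.78.

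Regulators of mitotic entry had medians of 0.24, 0.34 and 0.37 over 17 genes. Mybl2, which encodes the activator B-MYB of the CHR-binding complex, had a signal of 389.5, 633.0 and 637.4 on the H-RasV12, myr-Akt and c-Myc arrays, against 290.4 in non-transformed cells. Lin9, another component of that complex, was at 0.38, 0.34 and 0.86 on the log2 scale. Cdc25a, a phosphatase that activates CDKs, was at 0.74, 1.09 and 0.92. Ccnf, which encodes cyclin F, had signals of 481.1, 666.8 and 611.3, against 307.8 in non-transformed cells. Foxm1, a transcription factor of G2 and mitosis genes that was chosen after its values were seen, was at 0.23, -0.12 and -0.12 on the log2 scale.

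DNA replication genes, which are transcribed earlier in the cell cycle, were set beside the mitosis genes. Of 37 measured, 13 were at least 1.5-fold higher on the H-RasV12 array (8.87% of all tested genes were), 29 on the myr-Akt array (16.3%) and 27 on the c-Myc array (15.3%), and 0 were lower by that much on any of them. Their medians were 0.48, 0.79 and 0.75, against 0.30, 0.60 and 0.59 for the 34 mitosis genes. Whether the lists differ was not tested. Gins1, a subunit of the replicative helicase, was at 1.05, 1.39 and 1.37 on the log2 scale, the licensing factor genes Cdc6 and Cdt1 at 0.91 and 0.54 for H-RasV12, 1.47 and 1.20 for myr-Akt, and 1.10 and 1.37 for c-Myc. Orc1, the largest subunit of the origin recognition complex, was at 0.50, 1.35 and 1.28.

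**Figure D5:**
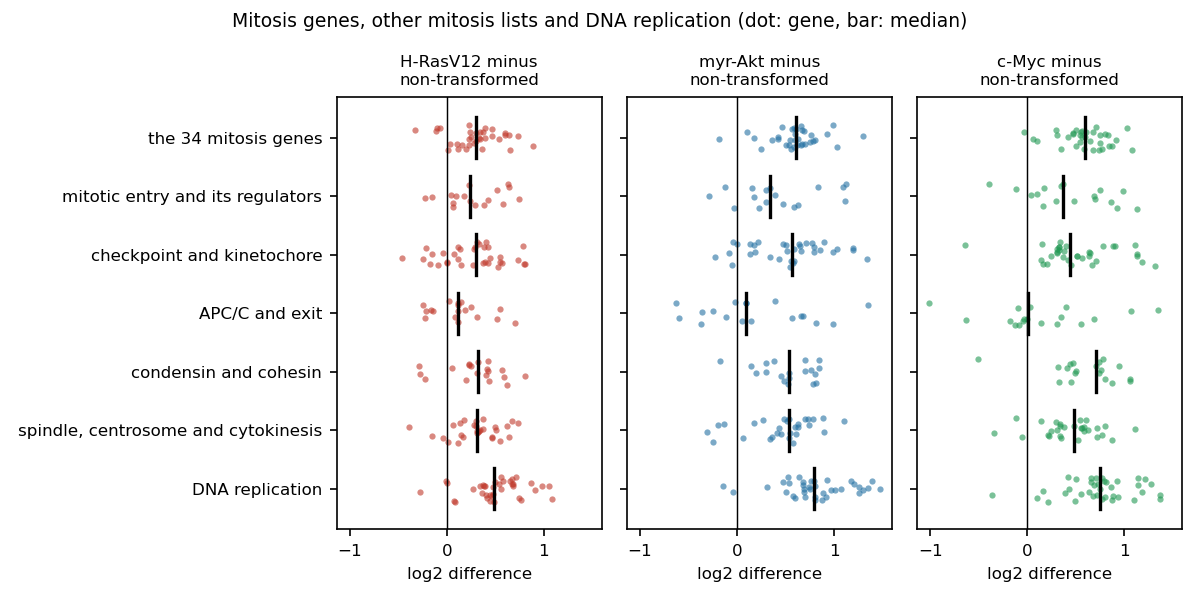
Log2 difference between each transformed array and the non-transformed array for every measured gene (dots) of the 34 mitosis genes, 5 further mitosis lists and the DNA replication list, with the median of each list as a bar. The DNA replication medians lie to the right of those of the 34 genes in all 3 panels, and those of the APC/C and exit list lie nearest to 0.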

How the data were processed

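RNA of 4 cultures was hybridised to Affymetrix mouse arrays, 1 per culture. Deposited values are intensities on a linear scale, 1 per probe set, which per the submitters' processing notes the authors made with MAS5 (no version stated there). The 2% trimmed mean was 500.003 on each array. Each array was scaled to that mean, lower signals were raised to a floor at 20% of it, and differences of log2 signals were computed with Python 3.11.15, numpy 2.4.6 and pandas 2.3.3. Of 45101 probe sets, 34945 had 1 gene symbol in the platform annotation, 932 several and 9160 none, and 64 were controls. Each of 6 differences between arrays was read by a rule of size (1.5-fold and 2-fold), beside the share of all tested genes past it, since 1 array per group allows no test; precision is limited by the number of arrays. The counting was tested on simulated data.

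The members and lists were chosen with earlier results of these data known. Genes named are those with the largest and smallest differences per comparison, those past 2-fold, the brightest and dimmest, those whose probe sets disagreed, those past 1.5-fold between transformed arrays, and up to 4 per further list. Other members are given by their fold or log2 difference. Alternatives tried were 3 treatments of low signals, 2 scalings, 3 choices of probe set and a restriction to genes above the floor on all arrays.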

Additional observations from a re-analysis of the deposited data

How the results depend on the processing

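Alternatives were compared by whether a median moved by 0.1 or more on the log2 scale or a count by over 1.5 times. Under each of the 9 alternatives run, the medians of the mitosis genes stayed above 0 on all 3 transformed arrays relative to non-transformed. These medians were over 34 genes, except 23 by the next brightest probe set and 33 without the probe sets that can bind further transcripts. Restricting to genes above the floor on all 4 arrays removed none of the 34, and neither other floor moved a median or count of theirs. The lowest signal of the 34 was 487.8 (Ndc80, non-transformed), above every floor tried, so these alternatives could not change their values. Scaling to a common median moved the median of the 8965 genes above the floor on all arrays to 0.13 for H-RasV12, 0.35 for myr-Akt and 0.40 for c-Myc, against 0.03, 0.03 and 0.05 in the main setting. The mitosis medians for myr-Akt and c-Myc were then 0.92 and 0.94, which is 0.57 and 0.54 above those shifts. H-RasV12 minus myr-Akt was -0.50 and H-RasV12 minus c-Myc -0.52. The genes above the floor on all arrays then had medians of -0.26 and -0.30, against -0.04 and -0.05 in the main setting. Counts past 2-fold became 10 for myr-Akt (12.2% of all tested genes, against 4.9% before) and 14 for c-Myc (13.2%, against 4.42%). For c-Myc 31 genes passed 1.5-fold (33.2% of all tested genes, against 15.3%). For myr-Akt 30 did, where 20 did in the main setting (31.4% of all tested genes, against 16.3%). Of all calls past 1.5-fold, 53.8%, 67.4% and 71.7% were then higher, against 39.3%, 42.1% and 42.9% in the main setting. That scaling also turned Cenpf for H-RasV12, Anln for myr-Akt and Spc25 for c-Myc above non-transformed. It put all 34 genes lower on the H-RasV12 array than on both others. Relative to the shifted median of the genes above the floor on all arrays, 5 of 34 lay higher in each comparison, as in the main setting. With quantile normalization 1 gene each passed 2-fold for myr-Akt and c-Myc (6.05% and 5.40% of all tested genes did).

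With a pseudocount, 3 genes passed 1.5-fold for H-RasV12, and 3 did with the mean over probe sets. That mean gave a median of 0.49 for myr-Akt, with 0 genes 2-fold higher (3.33% of all tested genes). It gave 1 gene (Anln) 1.5-fold lower for myr-Akt (1843 of 10250 tested genes) and 1 gene 2-fold higher for c-Myc (2.86%). By the next brightest probe set, over 23 genes, 1 gene was 2-fold higher for H-RasV12 (1.96% of all tested genes) and 4 for c-Myc (4.34%). For myr-Akt 11 genes were then 1.5-fold higher (16.5% of all tested genes), 2 lower (926 of 5002 tested genes) and 1 of them 2-fold lower. For c-Myc 1 gene was 1.5-fold lower (786 of 5002). Fewer genes have such a probe set, and the cause of the other shifts was not tested. Bub3 for myr-Akt was -0.24 by the next brightest probe set and likewise without the probe sets that can bind further transcripts. No paired analysis was possible because each group holds 1 array.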
